A study of Gallus gallus with 4 samples.

Results

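Angiopoietins are secreted ligands of the endothelial receptor tyrosine kinase TEK, also called TIE2. The arrays were examined for the 5 genes of this system, namely the receptors TEK and TIE1, the ligands ANGPT1 and ANGPT2, and the receptor-type phosphatase PTPRB. They were taken by gene symbol, and 9 of the 37693 chicken probe sets carry one of the 5 symbols, out of 13008 gene symbols with a probe set of their own. Where a gene has 2 probe sets, the one of highest mean signal over the 4 arrays stands for it. The tissue was the chorio-allantoic membrane (CAM) of chick embryos, the vascular membrane through which the embryo breathes. In the VEGF-A group, 3 µg of recombinant human VEGF-A dried on a plastic disc lay on the CAM for 24 h from day 13, and 3 single CAMs taken on day 14 at sites with visible new capillaries were hybridised to 1 array each. In the control group, RNA of 3 normal CAMs of day 14 was pooled and hybridised to 1 array. The sources differ on whether the control CAMs carried a disc with solvent, so an effect of disc and solvent cannot be told apart from one of VEGF-A.

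ANGPT1 activates TEK and is made mainly by mural and other stromal cells, which keeps vessels quiescent. ANGPT2 is stored and released by endothelial cells and, in most settings, competes with ANGPT1 and loosens vessels so that they can sprout. TIE1 binds none of the angiopoietins firmly and modulates TEK in complexes with it, and PTPRB, also called VE-PTP in the mouse, removes phosphate from TEK and from the VEGF-A receptor KDR. Active TEK works through PI3-kinase and AKT, which hold the transcription factor FOXO1 out of the nucleus, and FOXO1 in turn drives ANGPT2.

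The deposited values are linear signals with the same trimmed mean on every array, while the medians over chicken probe sets were 15.3, 17.2 and 15.7 in VEGF CAMs 1, 2 and 3, against 19.1 in the control pool. Of all chicken probe sets, 22616 had a mean signal above the 40th percentile, 11.1, which served as the filter, and they cover 10505 genes. A gene was counted by the 2-fold rule of the study when it was more than 2-fold from the control pool in at least 2 of the 3 comparisons. For higher genes the study also required a present call in the VEGF-A group. The signal filter replaces that call here, and the counts are not those of the study. By this rule 5.37% of the genes past the filter were higher and 6.03% were lower. Higher probe sets made up 42.3% of those counted with the deposited scaling, 55.8% after quantile normalization and 66.6% with arrays centred on their medians, and the median log2 ratio of all probe sets past the filter was -0.11, -0.04 and 0.14 under these scalings. Mean log2 ratios were tested by limma with Benjamini-Hochberg adjustment over all probe sets past the filter. No probe set reached an adjusted p under 0.05 (0 of 22616, lowest adjusted p = 0.0986), and 872 were higher and 546 lower at an unadjusted limma p under 0.05. With 1 control array the spread comes from the VEGF-A CAMs alone, and a permutation test of 3 arrays against 1 cannot go below an exact p of 0.25. Signal at the 3' end of actin over its 5' end, a sign of RNA quality, was 15.5, 19.7 and 22.9 in VEGF CAMs 1, 2 and 3, against 24.2 in the control pool, and its part in the results was not tested.

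The 2 receptors of the family were both higher in every VEGF-A CAM. TEK had a signal of 269, 275 and 324 in VEGF CAMs 1, 2 and 3, against 65.9 in the control pool. The 3 CAMs lay close together and well above the pool, at a mean ratio of 4.39 ± 0.45 (SD, n = 3 CAMs). On the log2 scale the mean of TEK was 2.13 (standard error 0.33, unadjusted 95% interval 1.36 to 2.90, limma adjusted p = 0.65), which placed it 94th of the 10505 genes past the filter, from the highest mean ratio down. Its other probe set was dim, with 8.86, 8.38 and 14.0 in the VEGF-A CAMs, against 1.68 in the control pool. It went the same way, but its control signal lies below the 20th percentile of all signals, 2.95, and with that value as a floor its ratios were 3.00, 2.84 and 4.76.

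TIE1 had a signal of 293, 201 and 329 in VEGF CAMs 1, 2 and 3, against 74.0 in the control pool. The lowest of the VEGF-A CAMs, VEGF CAM 2, was still 2.71-fold above the pool, and the ratio averaged 3.70 ± 0.89 (SD, n = 3 CAMs). On the log2 scale the mean of TIE1 was 1.86 (standard error 0.39, unadjusted 95% interval 0.94 to 2.77, limma adjusted p = 0.65), and TIE1 ranked 134th. Its second probe set, which also passed the filter, gave the same order of CAMs with smaller ratios. It read 57.6, 36.8 and 58.0 in the VEGF-A CAMs, against 24.4 in the control pool, a mean log2 ratio of 1.02 (limma adjusted p = 0.81). The size of the TIE1 ratio thus differed between its probe sets, and VEGF CAM 2 was lowest at both. In bulk tissue, more endothelial cells and more of a transcript per endothelial cell cannot be told apart, for these genes and for all those that follow.

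**Figure D1:**
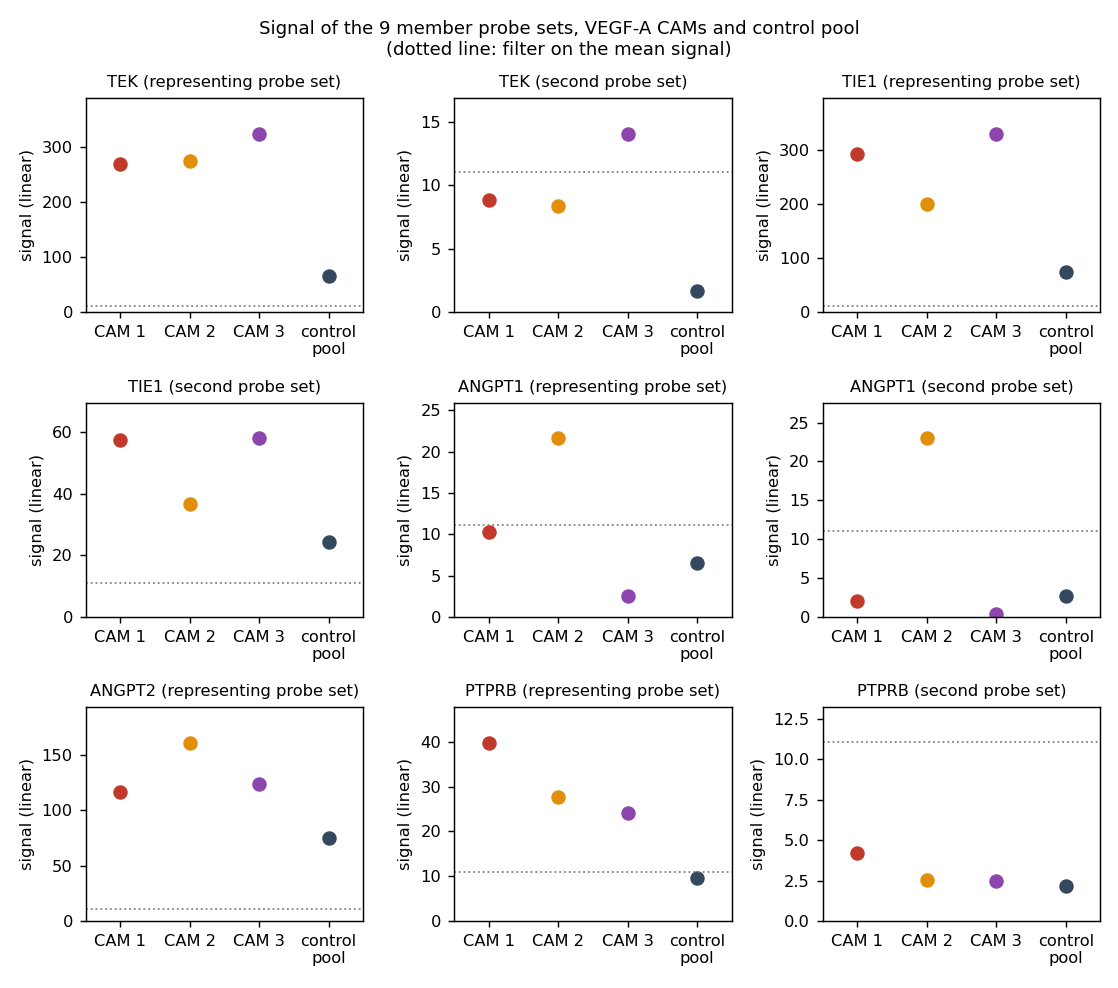
Linear signal (y axis, from 0, one scale per panel) of the 9 probe sets of TEK, TIE1, ANGPT1, ANGPT2 and PTPRB in VEGF CAMs 1 to 3 and the control pool (x axis), 1 point per array, with the filter on the mean signal, 11.1, as a dotted line. TEK at its representing probe set sits between 269 and 324 in the VEGF-A CAMs and at 65.9 in the control pool, while ANGPT1 is high in VEGF CAM 2 alone.

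PTPRB, the phosphatase that acts on TEK, was higher in the VEGF-A CAMs over a dim control. It had a signal of 39.7, 27.6 and 24.2 in VEGF CAMs 1, 2 and 3, against 9.57 in the control pool. Each VEGF-A CAM was above the pool, by 4.15-, 2.89- and 2.53-fold, with a mean log2 ratio of 1.64 (standard error 0.57, unadjusted 95% interval 0.31 to 2.97, limma adjusted p = 0.71). The control signal is below the filter, so that PTPRB passed it only through the VEGF-A arrays. Its second probe set stayed under the filter, with 4.19, 2.55 and 2.47 in the VEGF-A CAMs, against 2.17 in the control pool. An offset of 32 on every signal lowered the mean log2 ratio of PTPRB to 0.58, and PTPRB then no longer met the 2-fold rule.

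The ligands among the 5 genes had smaller or less settled ratios. ANGPT2 had a signal of 117, 161 and 124 in VEGF CAMs 1, 2 and 3, against 75.5 in the control pool. All 3 VEGF-A CAMs were above the pool, which held for 24.6% of the genes past the filter, but only VEGF CAM 2 exceeded 2-fold, with ratios of 1.55, 2.13 and 1.64. The mean log2 ratio of ANGPT2 was 0.81 (standard error 0.36, unadjusted 95% interval -0.04 to 1.67, limma adjusted p = 0.81). With the arrays centred on their medians it was 1.07, and ANGPT2 then met the 2-fold rule in 2 of 3 comparisons. ANGPT2 has a single probe set, so this value has no second measurement.

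ANGPT1 was dim, and its arrays disagreed. Its representing probe set had a signal of 10.3, 21.6 and 2.47 in VEGF CAMs 1, 2 and 3, against 6.56 in the control pool. The other one had 1.99, 23.0 and 0.320 in these CAMs, against 2.64 in the control pool. Both were highest in VEGF CAM 2 and lowest in VEGF CAM 3, and in each case the control pool lay between VEGF-A CAMs. Both mean signals were below the filter, so ANGPT1 was not tested in the same fit. Without a filter the mean on the log2 scale was 0.32 (standard error of 1.41, limma adjusted p = 0.98), and without VEGF CAM 2 it was -0.38. No direction can be given for ANGPT1 at this signal.

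By the 2-fold rule 3 of the 5 genes (TEK, TIE1 and PTPRB) were higher, against 5.37% of all genes past the filter, and 0 were lower. At their representing probe sets these 3 exceeded 2-fold in all 3 comparisons, as did 2.30% of the genes. At an unadjusted limma p under 0.05 the same 3 genes were higher, against 3.98% of all genes. PTPRB entered these counts only through the VEGF-A arrays, since its control signal of 9.57 is below the filter. ANGPT1 is among the 5 but did not pass the filter, unlike the genes behind the shares. The study picked TEK and TIE1 on these arrays, and the 5 genes were chosen with results known, so the count is a description.

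Other genes of blood endothelium were set beside the 5 genes. Of 19 measured blood endothelial markers, all of which had a control signal above 11.1, 13 were higher and 0 lower by that rule, against 5.37% and 6.03% of all genes. Their median log2 ratio was 1.44, 0.65 and 1.23 in VEGF CAMs 1, 2 and 3. The study picked several of these markers, KDR, CLDN5 and FLI1 among others, on these same arrays, so their count and median are a description. The leading markers were the VEGF-A receptors FLT1 and KDR with mean log2 ratios of 1.61 each, the tight junction protein CLDN5 with 1.47 and the transcription factor FLI1 with 1.45. At the other end, EGFL7 and TAL1 had mean log2 ratios of -0.47 each. EGFL7 had -0.23, -1.19 and -0.0009 in VEGF CAMs 1, 2 and 3, and TAL1 had 0.21, -1.75 and 0.12. The mean of TEK lay above those of all 19 markers, and that of ANGPT2 above 6 of them. TIE1 lay above all 19 at its brighter probe set only, since its second one, at 1.02, was below the median of the 19 means, 1.10, and the mean over both, 1.44, was below FLT1, KDR, CLDN5 and FLI1. PTPRB also lay above all 19, but over a control signal below 11.1, which none of the markers had, and its place was lost with the offset of 32. EMCN and ROBO4, also markers of blood endothelium, were below the filter, with control signals of 7.16 and 5.41. Their mean log2 ratios were -1.77 and -1.51, and without the filter the 2-fold rule would count both as lower. The summed signal of the 19 markers was 14301, 9102 and 15102 in VEGF CAMs 1, 2 and 3, against 6861 in the control pool, and its part in the results was not tested.

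VEGF CAM 2 had the lowest ratio of the 3 CAMs for 16 of these 19 markers. TIE1 shared this order, whereas the log2 ratio of TEK was lowest in VEGF CAM 1 (2.03), with 2.06 for VEGF CAM 2. ANGPT2 had its highest ratio there, as did FLT1 and SOX7, a transcription factor of endothelium, among the 19 markers. Relative to the median of the markers in the same CAM, the log2 ratio of TEK was higher by 0.59, 1.41 and 1.07 in VEGF CAMs 1, 2 and 3, on average by 1.02 ± 0.41 (SD, n = 3 CAMs). TIE1 at its brighter probe set exceeded the median by 0.75 ± 0.19, and PTPRB by 0.53 ± 0.39. The second TIE1 probe set did not stand above it, with 1.24, 0.59 and 1.25, against marker medians of 1.44, 0.65 and 1.23. For ANGPT2 the difference changed sign between CAMs, with -0.81, 0.44 and -0.51. With the offset of 32, PTPRB came to lie below the marker median by a mean of -0.33.

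**Figure D2:**
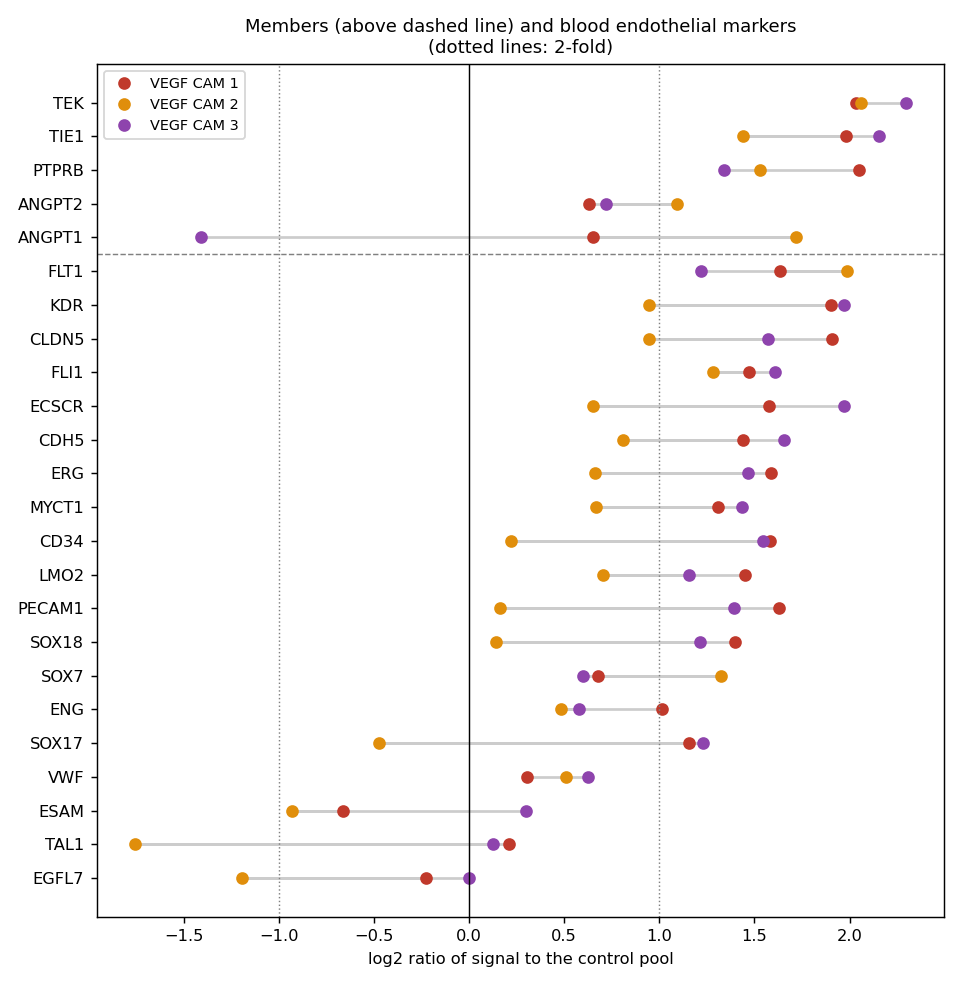
Log2 ratio of signal to the control pool (x axis) in VEGF CAMs 1, 2 and 3 (points) for the 5 genes of the angiopoietin and Tie system, above the dashed line, and for 19 blood endothelial markers, below it, with 2-fold as dotted lines. TEK, TIE1 and PTPRB at their representing probe sets lie beyond 2-fold in every CAM, and VEGF CAM 2 is the lowest point for 16 of the 19 markers but the highest for ANGPT2.

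Between genes of the system, receptor and ligand ratios were set against each other within each CAM. This takes out what an array does to all signals alike. The log2 ratio of TEK exceeded that of ANGPT2 by 1.40, 0.97 and 1.58 in VEGF CAMs 1, 2 and 3, a mean of 1.32 ± 0.31 (SD, n = 3 CAMs), so the difference had the same sign in all 3 CAMs and was larger than its spread. TEK and TIE1 at its brighter probe set differed by 0.05, 0.62 and 0.14, a mean of 0.27 ± 0.31, which is within the spread. This does not hold at the second TIE1 probe set, with log2 ratios of 1.24, 0.59 and 1.25, against 2.03, 2.06 and 2.30 for TEK. TEK and PTPRB differed by 0.49 ± 0.49. The differences that involve ANGPT1 spread widely, with 1.81 ± 1.72 for TEK over ANGPT1 and 0.49 ± 1.45 for ANGPT2 over ANGPT1. All these differences rest on the same control array, and no p is given for them.

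**Figure D3:**
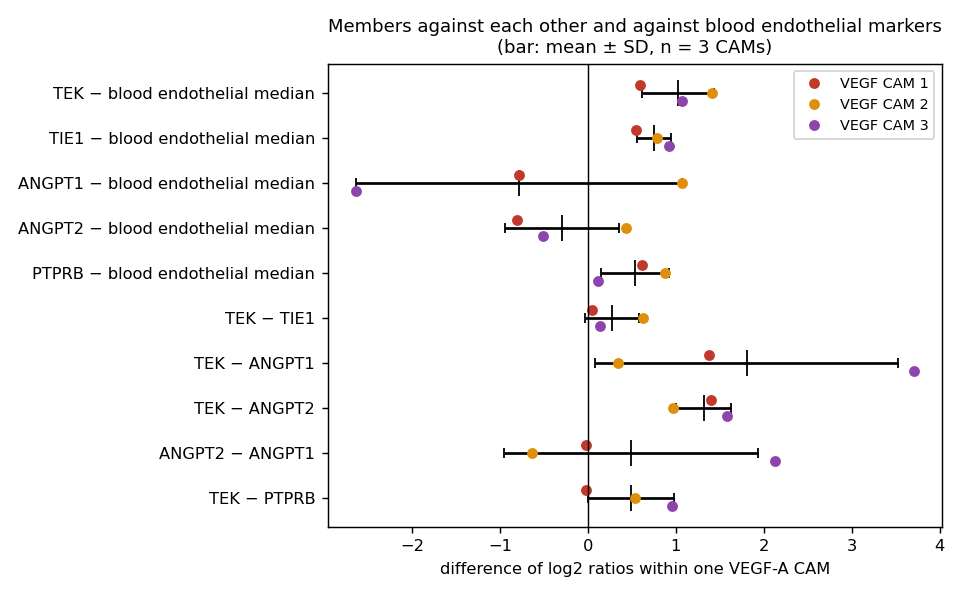
Difference of log2 ratios within one VEGF-A CAM (x axis) between each gene and the median of 19 blood endothelial markers, and between pairs of genes, with 1 point per CAM and a bar for the mean ± SD (n = 3 CAMs). Each gene is taken at its representing probe set only. TEK minus ANGPT2 lies above 0 in all CAMs, whereas differences with ANGPT1 span several log2 units.

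The rest of the ligand family was mostly dim. Of 8 further angiopoietin and angiopoietin-like genes, 3 passed the filter, 3 were below it and 2 have no probe set under their symbol. ANGPT4, a ligand that activates TEK in humans, had a signal of 27.0, 21.3 and 62.6 in VEGF CAMs 1, 2 and 3, against 6.54 in the control pool. Its mean log2 ratio was 2.34 (limma adjusted p = 0.69), with all 3 VEGF-A CAMs more than 2-fold above the pool. Like PTPRB, it passed the filter only through the VEGF-A arrays, and its second probe set read 1.96, 1.30 and 1.58, against 2.27 in the control pool. The family members ANGPTL6 and ANGPTL2, which do not bind TEK, had mean log2 ratios of -0.77 and -0.66 and met the 2-fold rule in neither direction. The mean of ANGPTL2 came from VEGF CAM 2 alone, with 0.04, -1.97 and -0.06 in VEGF CAMs 1, 2 and 3.

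Partners of the system at the cell surface were measured as well. Among the R3 receptor phosphatases related to PTPRB only PTPRJ passed the filter, with a signal of 48.5, 50.8 and 62.2 in VEGF CAMs 1, 2 and 3, against 73.7 in the control pool (mean log2 ratio -0.46, limma adjusted p = 0.86). All 3 of its ratios were below 1, the opposite direction to PTPRB. Ratios below 1 in all 3 CAMs were common, at 3130 of the 10505 genes past the filter. Of 6 measured integrin and matrix partners of the angiopoietins, the 2-fold rule was met by 0 in either direction, and with shares of 5.37% and 6.03% among all genes a list of this size need hold none. The integrin subunit ITGAV had a mean log2 ratio of 0.49, the matrix protein VTN of 0.33, and the integrin subunits ITGB3 and ITGB1 of 0.31 and 0.26. The ratios of ITGAV changed sign between CAMs, with 0.32, 1.35 and -0.22 in VEGF CAMs 1, 2 and 3, as did those of VTN, with -0.05, 0.39 and 0.64.

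For 18 measured genes of signalling downstream of TEK the median log2 ratio was 0.26, 0.11 and 0.21 in VEGF CAMs 1, 2 and 3, against -0.05, -0.04 and -0.03 for all genes past the filter. By the 2-fold rule 0 of the 18 were higher and 0 lower, against 5.37% and 6.03% of all genes, which is near those shares for a list of this size. None passed limma (0 of 18 at an adjusted p under 0.05 and 0 at an unadjusted p under 0.05). The focal adhesion adaptor PXN had the largest mean log2 ratio of the list, 0.91, followed by the kinase AKT1 with 0.72, the PI3-kinase catalytic subunit PIK3CB with -0.65 and its regulatory subunit PIK3R1 with -0.58. A second PXN probe set past the filter went the other way, with -0.27, as did the second one of AKT1, below the filter, with -1.17. The further PIK3R1 probe sets past the filter disagreed, with -0.54 at a bright one and 0.95 at a dim one. Those of PIK3CB, below the filter, had -0.50 and 1.12. FOXO1 had a signal of 204, 212 and 200.4 in VEGF CAMs 1, 2 and 3, against 139.9 in the control pool, and KLF2, an endothelial factor of shear stress that TEK signalling can induce, had 624, 535 and 542, against 395 in the control pool. Both were above the pool in all 3 CAMs with narrow spread, at mean log2 ratios of 0.55 and 0.52 (limma adjusted p = 0.85 for each), and they are named for their role after their values were seen. Signal above the pool in all 3 CAMs held for 9 of the 18 genes of this list and for 24.6% of all genes past the filter. Transcript levels do not measure the phosphorylation through which this pathway signals.

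Of 11 measured transcription factors known to act on the TEK, TIE1 or ANGPT2 genes, the 2-fold rule counted 5 as higher and 1 as lower. The shares among all genes past the filter were 5.37% and 6.03%, and 1 lower gene in a list of this size is near that share. The median log2 ratio of the 11 was 0.56, 0.42 and 0.52 in VEGF CAMs 1, 2 and 3, against -0.05, -0.04 and -0.03 for all genes. The 5 were ETS2 with a mean log2 ratio of 1.67 over a dim control signal of 5.50, FLI1 with 1.45, ERG with 1.24, LMO2 with 1.10 and ELK3 with 1.00. ETS2 passed the filter only through VEGF CAMs 1 and 2, with signals of 25.5 and 24.4, against 8.69 in VEGF CAM 3 (limma adjusted p = 0.85). All but LMO2, an adaptor that joins other factors on DNA, are members of the ETS family, and FLI1, ERG and LMO2 are also among the endothelial markers. The other measured ETS factors, ETS1 and ELF1, had mean log2 ratios of 0.11 and -0.21. GATA2 was the one counted lower, with 22.1, 7.23 and 6.47 in VEGF CAMs 1, 2 and 3, against 15.0 in the control pool. EPAS1, the hypoxia factor HIF2A, had a mean of 0.12, and TAL1, also among the endothelial markers, one of -0.47.

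**Figure D4:**
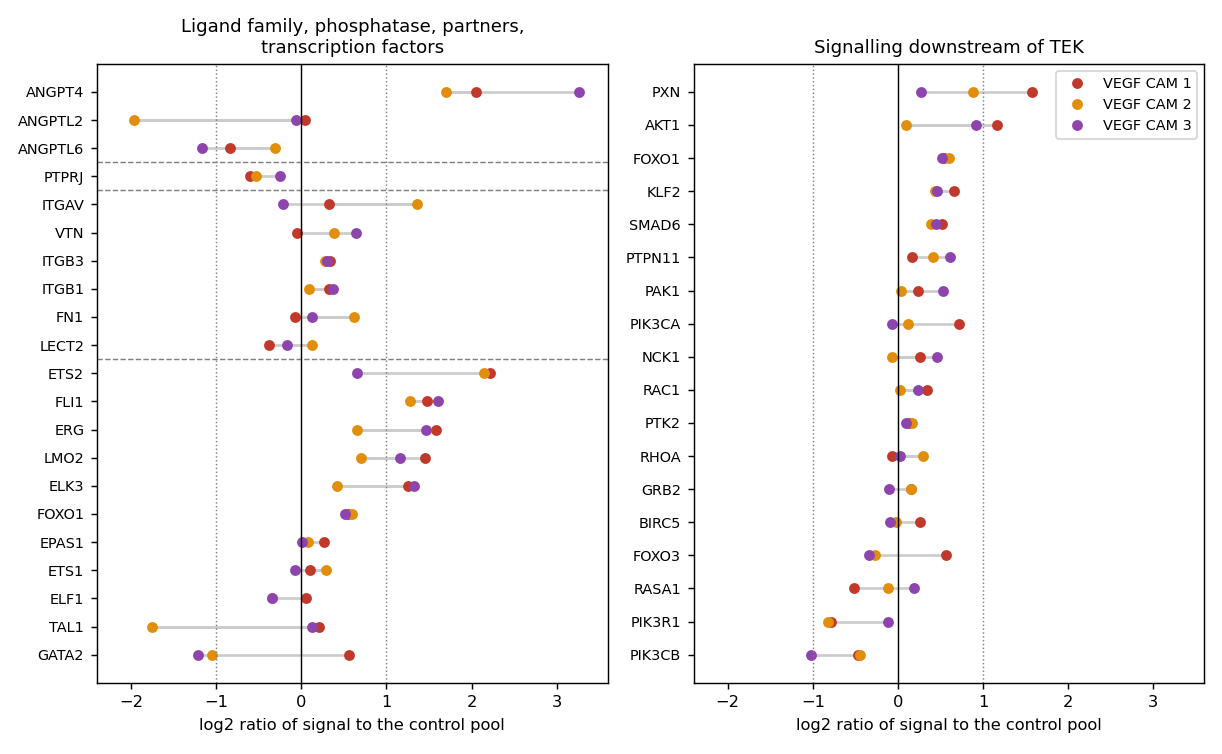
Log2 ratio of signal to the control pool (x axis) in VEGF CAMs 1, 2 and 3 (points) for measured genes around the angiopoietin and Tie system, on the left the ligand family, the phosphatase PTPRJ, integrin and matrix partners and transcription factors (dashed lines between groups), and on the right genes of signalling downstream of TEK, with 2-fold as dotted lines. ANGPT4 and FLI1 lie beyond 2-fold in every CAM, while the downstream genes have a median log2 ratio of 0.26, 0.11 and 0.21 in VEGF CAMs 1, 2 and 3.

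Markers of other cell types that could carry these transcripts were measured beside them. Among all genes past the filter, 5.37% were higher and 6.03% lower by the 2-fold rule. Counts of 0 or 1 in the short lists that follow are near these shares. TEK and TIE1 are expressed in lymphatic endothelium as well, and of 5 measured lymphatic markers 3 were higher and 0 lower by the 2-fold rule, with a summed signal of 2027, 2094 and 2191 in VEGF CAMs 1, 2 and 3, against 882 in the control pool. The receptor FLT4 led them with a mean log2 ratio of 2.08, close to TEK, followed by PROX1 with 1.32, RELN with 1.26 and PDPN with -0.58. A second, dim RELN probe set past the filter went the other way, with a mean log2 ratio of -2.26. It read 2.44, 29.4 and 1.72 in VEGF CAMs 1, 2 and 3, against 23.9 in the control pool. Of 10 measured markers of pericytes and smooth muscle, a source of ANGPT1, 0 were higher and 0 lower, and their summed signal was 3325, 2792 and 3850, against 2780 in the control pool. ABCC9 had a mean log2 ratio of 0.97, MYH11 of 0.84, MCAM of -0.83 and CSPG4 of 0.71. Of 7 measured macrophage and leukocyte markers, a lineage in which some cells carry TEK, 0 were higher and 0 lower, and their summed signal was 1971, 2607 and 4156, against 3726. CTSS, PTPRC and CD74 had mean log2 ratios of -0.71, -0.53 and -0.48 and LAPTM5 of 0.41. Further probe sets past the filter had 0.36 for PTPRC and 0.05 and 0.67 for CD74. Of 8 fibroblast markers 1 was higher, COL1A1 with a mean log2 ratio of 0.89, and 1 lower, PDGFRA with -1.26. The summed signal of the 8 was 34378.5, 48180.6 and 42001.4, against 26043.4 in the control pool. Their median log2 ratio was 0.28, 0.48 and 0.51 in VEGF CAMs 1, 2 and 3, against -0.05, -0.04 and -0.03 for all genes. PDGFRA was dim, with 7.53, 18.4 and 5.44 in VEGF CAMs 1, 2 and 3, against 21.9 in the control pool. COL1A2 with 1.15 and DCN with 0.62 did not meet the rule, and a further bright probe set of COL1A2 had 0.08. Of 6 red blood cell markers 3 were higher and 0 lower (RHAG 1.06, HBE 1.01, SLC4A1 1.01 and EPB42 0.83). TAL1, which is also on this list, went the other way with a mean log2 ratio of -0.47. Of 10 measured epithelial markers, of which KRT7, EPCAM and CLDN1 had signals from 7827 to 17058 on all 4 arrays and OCLN and ESRP1 were dim, 0 were higher and 1 lower (KRT5 -1.36, KRT14 -0.48, EPCAM -0.24 and CDH1 -0.20). The part of these cell types in the ratios of TEK, TIE1, PTPRB and ANGPT2 was not tested.

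The genes most like each member were sought among 10504 others by the root mean square difference of the 3 log2 ratios. Nearest to TEK were TEX2 (difference 0.04), the replication helicase subunit MCM5 (0.09) and RNF123 (0.09), of which MCM5 had a bright signal of 256, 291 and 307 in VEGF CAMs 1, 2 and 3, against 67.1 in the control pool, while the other 3 probe sets of TEX2 were below the filter and did not share its ratios. Nearest to TIE1 were CORO2B, LOC100859837 and LMF1 (0.10 to 0.11), and nearest to PTPRB were the kinetochore protein MIS12 (0.08), MYO1C (0.11) and TMOD4 (0.15). Like PTPRB, TEX2, RNF123 and LOC100859837 passed the filter only through the VEGF-A arrays, with control signals of 3.42, 5.09 and 9.01. The control signal of TMOD4, 11.06, was also just under the filter. The second probe set of MYO1C past the filter went the other way, with a mean log2 ratio of -0.77. ANGPT2 had 93 genes within a difference of 0.2, led by USB1, SLC25A37 and RHOT2 (0.02 to 0.05), where TEK had 6 and TIE1 and PTPRB 5 each. The further SLC25A37 probe sets past the filter disagreed, with mean log2 ratios of 0.83 at the brightest of them and -0.24 and -0.85 at dim ones. The likeness covers 3 ratios over 1 shared control array.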

How the data were processed

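RNA of 3 VEGF-A-treated CAMs and of 1 pool of 3 control CAMs was measured on 4 Affymetrix chicken arrays. The authors deposited 1 linear signal intensity per probe set and array, scaled to a common trimmed mean, neither logged nor floored. GCOS 1.2 is named in the submitters' processing notes. The study's selection also used detection calls. Those calls were not analysed here, and a signal filter stands in for them. Samples were grouped by their titles, and 0 value columns were left out.

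Of the 38535 probe sets on the array, 37693 are chicken probe sets. Gene names come from the platform table (27166 chicken probe sets with 1 symbol, 177 with several, not named, and 10350 with none). All 5 members have a gene of the same symbol in the RefSeq table of assembly GRCg7b, which was used for names and neighbours only. Log2 ratios to the control pool were taken without a pseudocount in R 4.3.3, and log2 signals were fitted by limma 3.58.1 with a variance trend (2 residual degrees of freedom, prior degrees of freedom 5.23). Figures were drawn in Python 3.11.15 with matplotlib 3.10.9. The functions were tested on simulated data. The number of arrays limits the precision.

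The members, the gene lists, the tests and the alternatives were chosen with earlier results of these data known. Named genes are the members, up to 4 genes of each list past the filter with the largest absolute mean log2 ratio, and the 3 genes nearest to each member past the filter. Genes outside this rule are ELK3, ETS1, ELF1, GATA2, EPAS1, TAL1, EGFL7, the genes that neighbour the members, SOX7, EMCN, ROBO4, KRT7, CLDN1, OCLN, ESRP1, FOXO1 and KLF2, and were named after their values were seen. This also holds for the further probe sets of ABCC9, COL1A2, PXN, AKT1, CD74, PTPRC, RELN, PIK3R1, PIK3CB, FLT4, MCPH1 and SLC25A37. The processing was varied by quantile normalization or median centring of the arrays, by an offset of 32 or a floor (20th percentile), by a stricter filter (60th percentile) or none, by limma with no trend, by means over probe sets, and by leaving out each VEGF-A CAM. Protein and promoter sequences were not analysed here.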

Additional observations from a re-analysis of the deposited data

How the results depend on the processing

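The mean log2 ratios of TEK, TIE1, PTPRB and ANGPT2 stayed above 0 under every alternative run, between 1.71 and 2.38 for TEK, 1.44 and 2.11 for TIE1, 0.58 and 1.89 for PTPRB and 0.62 and 1.07 for ANGPT2, and no limma adjusted p fell below 0.22. Leaving out 1 VEGF-A CAM gave 2.05 to 2.18 for TEK, 1.71 to 2.07 for TIE1, 1.43 to 1.79 for PTPRB and 0.68 to 0.90 for ANGPT2, but -0.38 to 1.19 for ANGPT1, which turned sign without VEGF CAM 2. With the offset of 32 the mean difference of TEK and PTPRB widened to 1.13 and PTPRB fell below the endothelial marker median, at -0.33. The count of members higher by the 2-fold rule was 2 with the offset and at the 60th percentile (PTPRB drops out), 4 with arrays centred on the median (ANGPT2 enters) and 3 under the other settings. These counts cover members past the filter of each setting. ANGPT1, below the filter, would also have met the rule after quantile normalization, with log2 ratios of 1.05 and 1.94 in the CAMs above 2-fold and -1.19 in the lowest. The probe sets counted by the 2-fold rule, 1535 higher and 2092 lower, were 2418 and 1213 after centring, 245 and 232 with the offset, 4565 and 6804 without a filter, 703 and 730 at the 60th percentile, 671 and 452 when all 3 comparisons had to pass, and 886 to 1027 and 915 to 1047 without 1 of the VEGF-A CAMs, where both remaining CAMs had to pass. The cause was not tested. PTPRB and ANGPT1 have no value at the 60th percentile. No paired analysis was possible because the control group has 1 array. The dim control signals of ANGPT1 and PTPRB limit what their ratios can show.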

Other observations

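The genes next to the members in the RefSeq order were looked at as well, after the values of the members were known. RSPO2, a secreted activator of Wnt signalling that neighbours ANGPT1, had a signal of 3.24, 27.2 and 5.002 in VEGF CAMs 1, 2 and 3, against 9.10 in the control pool. It was highest in VEGF CAM 2, as both probe sets of ANGPT1 were, and passed the filter only through that array. Some other dim probe sets were also highest there, and others were not. A dim FLT4 probe set, for example, had 0.92, 22.5 and 0.80, against 2.82 in the control pool. ABRA, on the other side of ANGPT1, was dim and had 9.20, 15.9 and 5.38, against 5.61 in the control pool. MCPH1, a gene of chromosome condensation whose span overlaps that of ANGPT2, was at 0.65, -0.02 and 0.44 on the log2 ratio scale in VEGF CAMs 1, 2 and 3, so its lowest ratio was in the CAM where that of ANGPT2 was highest. PTPRR, a phosphatase gene next to PTPRB, had 281, 77.9 and 232, against 187 in the control pool, without the raised signal of PTPRB in VEGF CAM 2. TIE1's measured neighbour C1orf210 had log2 ratios of -0.37, -0.51 and 0.27.

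ABCC9, a potassium channel subunit of pericytes and smooth muscle, had 2 probe sets past the filter that went the same way. The brighter read 356, 343 and 396 in VEGF CAMs 1, 2 and 3, against 186 in the control pool, and the other 108, 138 and 114, against 31.0, with mean log2 ratios of 0.97 and 1.94 (limma adjusted p = 0.69 and 0.65). Its larger ratio was near that of TEK, while the median of the pericyte and smooth muscle markers was 0.36, -0.01 and 0.41 on the log2 scale.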
